A study of Mus musculus with 4 samples.

Results

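The miR-467 family is a group of mouse microRNAs encoded mostly in a large cluster within the gene Sfmbt2 on chromosome 2. All names on the array that start with mmu-miR-467 and a letter were taken, guide and star strands alike, where the star marks the arm of the hairpin named as the minor product. That rule gave 8 of 577 miRNA names: miR-467a, miR-467a*, miR-467b, miR-467b*, miR-467c, miR-467d, miR-467e and miR-467e*. The RNA came from A3-1, a mouse embryonic stem cell line grown in serum with LIF, which holds these cells in the pluripotent state. One group of 2 samples had received a small interfering RNA (siRNA, a short duplex that directs cleavage of a matching mRNA) against Lin28a, and the other group of 2 an siRNA against GFP as control. Both were harvested at 48 h, and 100 ng of total RNA per sample was labelled with Cy3 for a 1-colour Agilent miRNA array. No other genetic change is named for either group, and nothing in the labels says whether replicates were separate cultures, so p-values reflect the scatter of these samples alone, and that scatter may be technical.

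LIN28A is an RNA-binding protein of pluripotent cells best known for blocking the maturation of let-7 precursors. The Sfmbt2 cluster is specific to rodents, and its hairpins are many near copies of a few families, miR-466, miR-467, miR-669 and miR-297, that lie in an intron of Sfmbt2 and can be made from one host transcript. Sfmbt2 encodes a Polycomb-group protein and is an imprinted gene, expressed from the paternal allele in early embryos and extraembryonic tissue. A mature miRNA guides Argonaute proteins to mRNAs that pair with its seed near the 5′ end. Loading usually favours one arm of the hairpin, the guide, over the other.

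The siLin28a duplex is shown because it defines the comparison. Its strands, as the labels give them without the overhangs, are written 5′ to 3′ in lower case:
siLin28a strand 1: gggaggaagaggaagagau
siLin28a strand 2: aucucuuccucuuccuccc

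Since most of the family lies within one host gene, a RefSeq window around a start of Sfmbt2 is shown as well. RefSeq lists windows for 2 starts of the gene, and the one with more CG dinucleotides is printed. It lies at chr2:10372186-10372485 of build GRCm38.p6, on the plus strand, and runs from 250 bases before that start to 50 bases after it. Every CG, the dinucleotide at which mammalian DNA is methylated, is in capitals:
Sfmbt2 promoter window: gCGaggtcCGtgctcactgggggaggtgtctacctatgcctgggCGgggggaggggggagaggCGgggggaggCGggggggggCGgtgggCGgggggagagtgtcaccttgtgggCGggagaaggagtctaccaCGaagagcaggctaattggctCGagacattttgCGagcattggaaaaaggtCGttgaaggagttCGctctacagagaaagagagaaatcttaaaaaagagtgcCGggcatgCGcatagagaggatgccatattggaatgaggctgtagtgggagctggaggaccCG
The window holds 16 CG dinucleotides, a motif that reads the same on both strands. At least 1 CG stood in 94.6% of the 32851 RefSeq windows of this length, and 33% held 16 or more. The window of the other start, at chr2:10370201-10370500, holds 9 CG, and 45.8% of windows held at least that many. The count describes these letters, and the arrays did not measure methylation or transcription at the site.

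By the RefSeq annotation of GRCm38.p6, 17 genes are named Mir467, and 14 of them lie within Sfmbt2. Of those 14, 10 are copies of Mir467a, and the others are Mir467b, Mir467c, Mir467d and Mir467e. Outside Sfmbt2 lie Mir467f on chromosome 11, Mir467g on chromosome 5 and Mir467h on chromosome 9. The probes lay in one stretch of the cluster. In build mm9, which the scanner files use, the probe target of miR-467c lay at chr2:10395571-10395589, and that of miR-467b at chr2:10402886-10402903. The miR-467a target lay at chr2:10402888-10402905 and shared 16 bases with that of miR-467b, so cross-hybridisation between these near copies cannot be told apart from signal of either. The miR-467b* target, at chr2:10402926-10402941, followed 22 bases after that of miR-467b, as the opposite arm of a hairpin would. The miR-467a* target lay at chr2:10422504-10422520, and its probes also list a second name, miR-467d*. The miR-467e and miR-467e* targets, at chr2:10427361-10427379 and chr2:10427396-10427416, were 16 bases apart, and the miR-467d target lay at chr2:10429272-10429288. No probe target of another miRNA on the array overlapped those of the miR-467 names (0 overlaps). The map of probe targets shows the 4 families interleaved over the cluster.

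**Figure D1:**
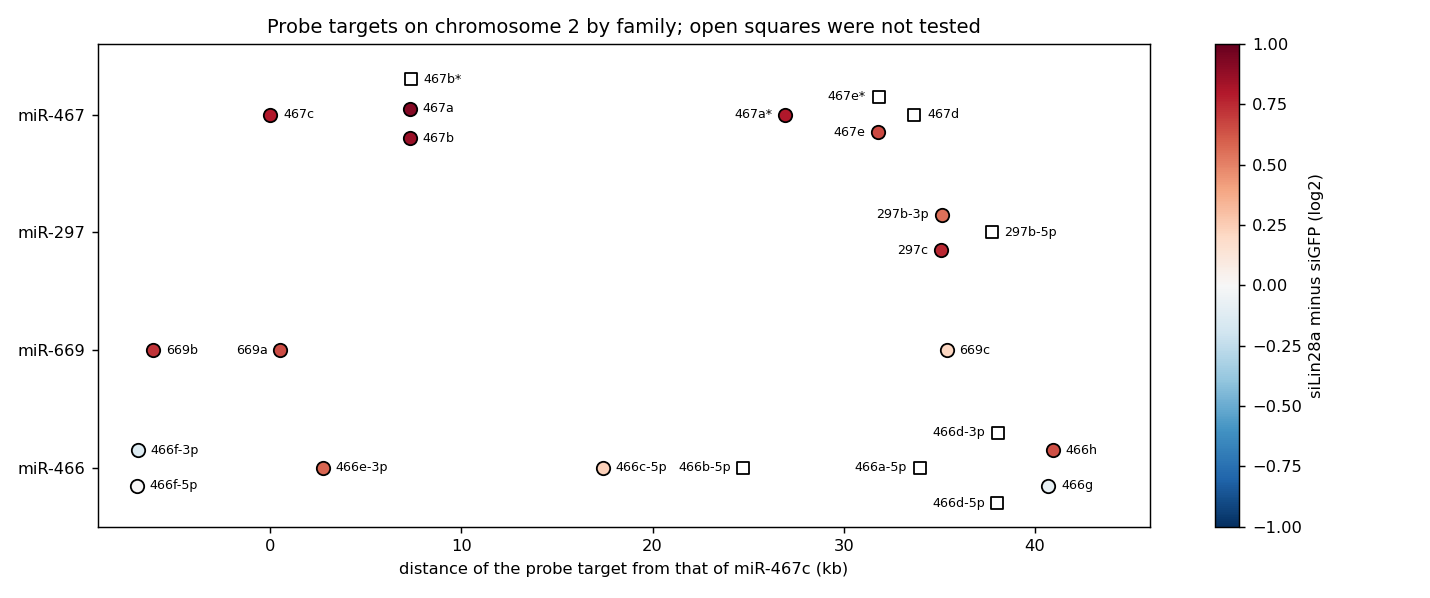
Position of each probe target of the miR-467, miR-297, miR-669 and miR-466 names on chromosome 2, as the distance in kb from the target of miR-467c (horizontal axis), with 1 row per family. Circles are coloured by the log2 difference, siLin28a minus siGFP, of the tested miRNAs, open squares mark names that were not tested, and points at nearly equal distance are set apart vertically; the 5 tested miR-467 names lay between 0 and 31.79 kb and had differences of 0.66 to 0.92.

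The cells carried the miRNAs of embryonic stem cells: all 8 names of the miR-290 to miR-295 cluster on the array were detected, with summed signals of 66500 and 68970 in siLin28a cells and 60160 and 59870 in siGFP cells. Of 5 names of the miR-302 and miR-367 cluster, which marks primed pluripotent cells, 1 was detected, and their summed signal was 42.9 and 20.0 in siLin28a cells and 27.6 and 10.6 in siGFP cells. Of 6 fibroblast or feeder names 4 were detected, with sums of 417.6 and 386.1 in siLin28a cells and 375.6 and 312.6 in siGFP cells. None of 3 muscle names and none of 2 endoderm names was detected (0 in each list). The array holds miRNA probes, so the siRNA target, Lin28a mRNA, was not measured. All 4 arrays lay on 1 slide and were scanned once. Replicate 1 lay at position 2 (siLin28a) and position 1 (siGFP), and replicate 2 at positions 4 and 3, so replicate number and place on the slide cannot be told apart. Each siGFP array lay just before the siLin28a array of its number, so within a number group and place cannot be told apart either.

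Of the 8 miR-467 names, 5 gave clear signal and 3 were dim. The signal of a miRNA is given first as the total gene signal, the sum over its probes in fluorescence units that Agilent's software writes, with no scaling between arrays. Signals of different miRNAs depend on their probes, so each is compared across arrays and not with another. miR-467a gave 276.3 and 133.4 units in siLin28a cells (replicates 1 and 2), against 127.7 and 60.2 in siGFP cells. Within each replicate number the siLin28a array was brighter, and the siGFP array of replicate 1 nearly reached the siLin28a array of replicate 2. miR-467b, whose probes share most of their target with those of miR-467a, gave 570.0 and 286.3 units in siLin28a cells, against 270.9 and 135.5 in siGFP cells. Its 4 values stood in the same order. miR-467c, from the hairpin at the start of the stretch probed, gave 155.9 and 89.4 units in siLin28a cells and 70.1 and 40.3 in siGFP cells. As for miR-467a and miR-467b, both siLin28a arrays lay above both siGFP arrays in these unscaled units, and for miR-467c by a wider margin.

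miR-467e gave 186.5 and 77.5 units in siLin28a cells, against 96.2 and 44.6 in siGFP cells. For this member the siGFP array of replicate 1 was brighter than the siLin28a array of replicate 2. miR-467a*, the star arm paired by name with miR-467a, gave 184.5 and 101.8 units in siLin28a cells and 98.4 and 43.8 in siGFP cells. Group means ± SD (n = 2 each) were 204.9 ± 101 units in siLin28a and 94.0 ± 47.7 in siGFP cells for miR-467a. They were 428 ± 201 and 203 ± 95.7 for miR-467b, 123 ± 47.0 and 55.2 ± 21.0 for miR-467c, with siLin28a first in both. For miR-467a and miR-467b the SD in siLin28a cells was nearly as large as the distance between the group means. In the unscaled signal the groups did not overlap, with siLin28a higher, for 4 of the 5 names, all but miR-467e, against a background of 50.6% (117 of 231 tested miRNAs). Within replicate 1 the siLin28a signal of the 5 names was 1.87 to 2.23 times the siGFP signal, and within replicate 2 it was 1.74 to 2.32 times.

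The other 3 names were near or below the detection limit. miR-467e*, the arm opposite miR-467e, gave 20.6 and 16.8 units in siLin28a cells and 13.3 and 10.4 in siGFP cells, and the software called it detected in both siLin28a samples but in neither siGFP sample. The software gave these signals errors of 3.19 and 2.55 units in siLin28a cells and 3.11 and 2.87 in siGFP cells. miR-467b*, the arm opposite miR-467b, gave 7.74 and 13.7 units in siLin28a cells and 2.30 and 4.74 in siGFP cells, and was called detected only on the siLin28a array of replicate 2. miR-467d gave -4.42 and -4.42 units in siLin28a cells and -6.08 and -5.42 in siGFP cells and was detected on none of the 4 arrays. These values lie below the fitted background and were not well above it on any array. At most 20% of the spots of any probe of these 3 names were well above background on an array, so they did not enter the test.

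**Figure D2:**
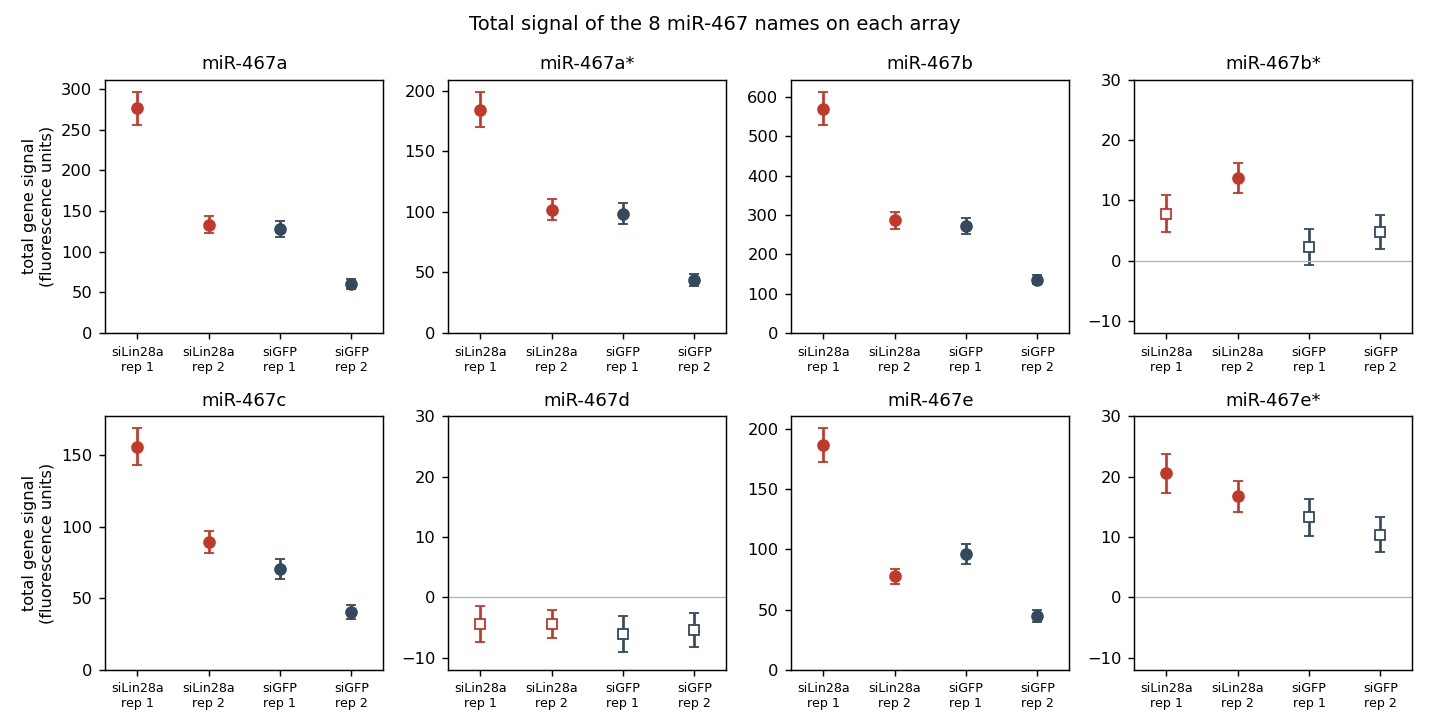
Total gene signal in fluorescence units (vertical axes, which start at 0 and differ by name for the bright names and share a range for the 3 dim ones) of the 8 miR-467 names on each array, with siLin28a in red and siGFP in dark blue. Filled circles were called detected by the software, open squares were not, and bars are the software's error of the signal on that array; each of the 5 bright names was highest on the siLin28a array of replicate 1 and lowest on the siGFP array of replicate 2.

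The comparison of siLin28a with siGFP cells asks which miRNAs change when Lin28a is targeted. Values were log2 scaled signals: probe signals were scaled to their array's 75th percentile over 425 probes that were bright throughout, raised to a floor of 0.0948 where lower, taken to log2 and averaged over the kept probes of a miRNA. Probes had to be well above background in both samples of siLin28a or of siGFP to be kept. That left 231 miRNAs, and groups were compared with limma, with Benjamini-Hochberg adjustment over all 231 and a threshold of 0.05. The 5 tested miR-467 names all averaged higher in siLin28a cells, by 1.58 to 1.89 times, and none passed the test: 0 of 5 were called higher, against a background of 0.866% of all tested miRNAs (2 of 231), and 0 of 5 were called lower, against a background of 0%. At an unadjusted p under 0.05, again 0 of 5 were called, beside 31 higher and 26 lower of the 231. The 2 called miRNAs, let-7a and let-7f, belong to the family whose precursors LIN28A binds and are named here with their values known. Both lay at the floor (-3.40 on the log2 scale) on both siGFP arrays. Their SD in siGFP cells was therefore 0 by the floor, and their calls rest in part on that.

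miR-467a had log2 scaled signals of -0.39 and -1.56 in siLin28a cells and -1.33 and -2.44 in siGFP cells, a difference of 0.92 (SE 0.61, 95% interval -0.84 to 2.67, limma adjusted p = 0.370). miR-467b had 0.60 and -0.51 in siLin28a cells and -0.29 and -1.35 in siGFP cells, a difference of 0.86 (SE 0.58, interval -0.80 to 2.52, adjusted p = 0.370). For both, the siGFP array of replicate 1 lay above the siLin28a array of replicate 2, so the groups overlapped. miR-467c had -1.31 and -2.29 in siLin28a cells and -2.34 and -2.86 in siGFP cells, a difference of 0.80 (SE 0.42, interval -0.42 to 2.03, adjusted p = 0.294). Its groups did not overlap, by 0.06 on the log2 scale. After scaling this was the 1 name of 5 whose siLin28a arrays both lay higher, against a background of 30.7% (71 of 231). For miR-467a, miR-467b and miR-467a* the unscaled total signals did not overlap. The log2 values differ from these in the summary over probes as well as in the scaling. Before scaling, a miR-467a* probe already gave 98.1 units on the siGFP array of replicate 1 and 95.9 on the siLin28a array of replicate 2.

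miR-467e had -0.93 and -2.31 in siLin28a cells and -1.71 and -2.86 in siGFP cells, a difference of 0.66 (SE 0.68, interval -1.29 to 2.62, adjusted p = 0.530). Without the siLin28a array of replicate 1 this difference was -0.0295. The star arm miR-467a* had -1.05 and -2.02 in siLin28a cells and -1.78 and -2.89 in siGFP cells, a difference of 0.80 (SE 0.56, interval -0.81 to 2.40, adjusted p = 0.383). Of the 5 names, miR-467a, miR-467b and miR-467e had both probes well above background on all 4 arrays, while miR-467a* and miR-467c each had a probe that was not so on the siGFP array of replicate 2. This fit counts the difference between replicates 1 and 2 as scatter, and under it each interval held both 0 and a difference of 2 on the log2 scale.

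The median difference of the 5 names was 0.80, beside 0 over all 231 miRNAs, and their median SE was 0.58, beside 0.13. By SE, miR-467e, miR-467a, miR-467b, miR-467a* and miR-467c ranked 1, 2, 4, 6 and 13 of 231. The median was 0.31 without the siLin28a array of replicate 1 and 0.33 without the siGFP array of replicate 2. It was 1.36 without the siLin28a array of replicate 2 and 1.35 without the siGFP array of replicate 1. Under 2 other choices members were called. With normexp background correction 1 of 5 was called higher, miR-467b (0.51, limma adjusted p = 0.00307), against a background of 2.16% (5 of 231). That correction raised the median signal by 47.5 units on the siGFP array of replicate 2 and lowered it on each other array. With no filter on dim probes 5 of 8 were called higher, the same 5 names with the same differences (adjusted p between 1.42e-06 and 0.000681), against a background of 7.05% (40 of 567). Their SEs there were 0.156 to 0.159. In both of these fits the prior degrees of freedom were infinite, beside 1.64 as reported. The SE of a name then came from the trend over all miRNAs and not from its own scatter between replicates, so these p-values leave that scatter out.

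Replicate 1 was higher than replicate 2 in both groups for all 5 names. Each group holds a single array of each number, so its spread lies between the numbers by design. What the values show is that the direction was shared by the groups. In siLin28a cells replicate 1 exceeded replicate 2 by 1.17 on the log2 scale for miR-467a, by 0.97 for miR-467a*, by 1.11 for miR-467b, by 0.98 for miR-467c and by 1.38 for miR-467e. In siGFP cells the same step was 1.11 for miR-467a, 1.11 for miR-467a*, 1.06 for miR-467b, 0.52 for miR-467c and 1.15 for miR-467e. The step differed between the groups by 0.46 for miR-467c and by no more than 0.23 for the other names. For miR-467c the floor made the siGFP step smaller: on the siGFP array of replicate 2 a probe was raised to -3.40 from a log2 value of -4.25. The median step was 1.11 in siLin28a and 1.11 in siGFP cells, beside -0.03 and -0.03 over all 231 miRNAs. miR-467e had the largest step of all 231 in both groups (rank 1 and 1), and miR-467a ranked 3 and 3.

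Within replicate numbers, siLin28a minus siGFP was 0.94 in replicate 1 and 0.89 in replicate 2 for miR-467a, and 0.89 and 0.84 for miR-467b. It was 0.73 and 0.87 for miR-467a*, 1.04 and 0.57 for miR-467c, and 0.78 and 0.55 for miR-467e. The floor lowered the replicate 2 values of miR-467c and miR-467a*, each with a probe at the floor on that siGFP array. In unscaled total signal, siLin28a was 2.23 and 2.22 times siGFP for miR-467c in replicates 1 and 2. These within-number values lay closer to each other than the 2 replicates of a group did, for every one of the 5 names. Their medians were 0.89 in replicate 1 and 0.84 in replicate 2, beside 0.00093 and 0 over all 231 miRNAs.

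To set these values against all miRNAs, a step of 0.5 on the log2 scale (1.41-fold) was used, chosen with the values known. All 5 names were at least that much higher in siLin28a cells within both replicate numbers, against a background of 9.09% (21 of 231). All 5 were also at least that much higher in replicate 1 within both groups, against a background of 6.06% (14 of 231). Both conditions together were met by 11 miRNAs, a background of 4.76%. The 11 were the 5 miR-467 names, miR-297a, miR-297b-3p, miR-297c, miR-669a, miR-669b and miR-466h, and 0 of the 214 miRNAs outside the 4 families were among them. Both conditions use the same 4 arrays, and the counts are a description.

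**Figure D3:**
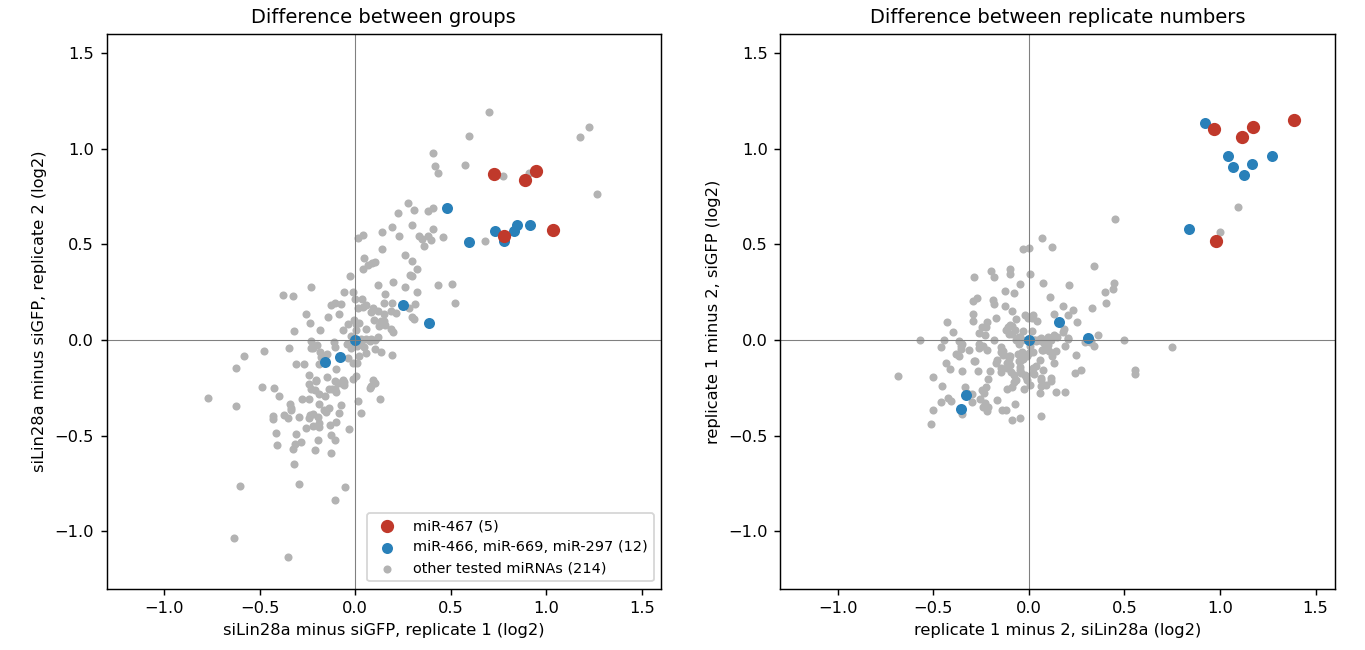
Each point is 1 of the 231 tested miRNAs, in red for the 5 miR-467 names, in blue for the 12 names of the miR-466, miR-669 and miR-297 families, and in grey for the other 214. The left panel plots the log2 difference siLin28a minus siGFP in replicate 2 (vertical) against replicate 1 (horizontal), and the right panel plots replicate 1 minus replicate 2 in siGFP (vertical) against siLin28a (horizontal, both log2); the miR-467 names lie at 0.73 to 1.04 and 0.55 to 0.89 on the left, and on the right they stand with 7 names of the other families (miR-297a, miR-297b-3p, miR-297c, miR-669a, miR-669b, miR-466e-3p and miR-466h) away from nearly all others.

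Every kept probe was higher in siLin28a cells within both replicate numbers and higher in replicate 1 within both groups, though not always by 0.5. The smallest values were those of a miR-467c probe at the floor on 1 array, with 0.36 between groups in replicate 2 and 0.30 between replicates in siGFP cells. A miR-467e probe differed between groups by 0.48 in replicate 2. The 5 tested names had 10 kept probes, 2 for each, whose spots on an array (6 to 10 after outliers were left out) varied with a median coefficient of variation of 5.51% and at most 37.8%. The standard error over spots was at most 0.18 on the log2 scale, below the step between replicates for every probe. The 10 probes gave group differences between 0.62 and 0.93. For miR-467a they were 0.93 and 0.90, and for miR-467b 0.88 and 0.85. For miR-467e they were 0.70 and 0.62. A value at the floor occurred in 2 cases, for 1 probe each of miR-467a* and miR-467c on the siGFP array of replicate 2. Their differences were 0.78 and 0.76 with the floor and 0.90 and 1.19 without it. Spots of a probe share 1 RNA sample, so their precision says nothing of the spread between samples.

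**Figure D4:**
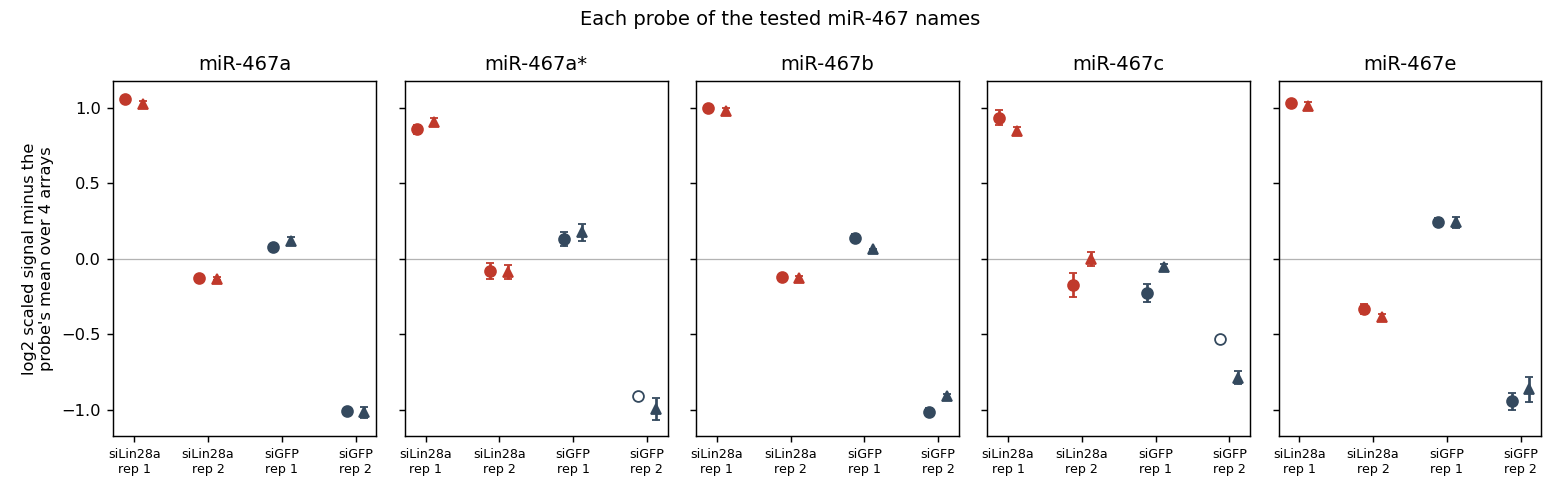
Log2 scaled signal of each kept probe minus that probe's mean over the 4 arrays (vertical axis), by array, for the 5 tested miR-467 names, with siLin28a in red and siGFP in dark blue. Circles and triangles are the 2 probes of a name, bars are the standard error over spots, and the 2 open circles without bars are values at the floor of 0.0948; the paired probes of a name follow the same order of arrays, from the siLin28a array of replicate 1 at the top to the siGFP array of replicate 2 at the bottom.

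The guide and star arms of a hairpin are cut from one precursor, and their balance can be followed on each array. For miR-467a both arms were tested, paired by name. Their listed targets do not lie in one hairpin: they were 7.32 and 26.93 kb from that of miR-467c. The miR-467a target lay 20 bases from that of the dim miR-467b*. The log2 signal of miR-467a minus that of miR-467a* was 0.67 and 0.46 in siLin28a cells and 0.45 and 0.44 in siGFP cells. These 4 values lay far closer together than those of either arm alone. The balance of the arms differed between groups by 0.12 (SE 0.13, 95% interval -0.19 to 0.42, adjusted p = 0.762). The adjustment ran over the 27 hairpins of the array with both arms tested, of which the background called was 0%, with 1 at an unadjusted p under 0.05. The interval allows a shift between the arms of up to 0.42. A miR-467a* probe was at the floor on the siGFP array of replicate 2. With the floor at 0.5 of its value the difference was 0.06. Because RefSeq places 10 Mir467a copies in the gene and the star probes also list miR-467d*, the signals of both arms may come from several hairpins. For miR-467b and miR-467e the star arms were too dim to test, and all values of miR-467b*, miR-467e* and miR-467d were at the floor when no filter was applied.

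The other families of the cluster had both like and unlike values. Of the miR-669 names 3 of 3 were tested, of the miR-297 names 3 of 4 and of the miR-466 names 6 of 10. None of these 12 was called in either direction (0 called). The median difference was 0.65 for miR-669, 0.70 for miR-297 and 0.12 for miR-466, where miR-466f-5p was at the floor on every array. miR-297a gave 284.7 and 141.9 units in siLin28a cells and 141.8 and 80.2 in siGFP cells, a log2 difference of 0.70 (SE 0.53, adjusted p = 0.417). It is counted here by its family name, since the map of chromosome 2 targets does not hold it. miR-669a gave 332.8 and 172.3 units in siLin28a cells and 177.2 and 96.8 in siGFP cells, a difference of 0.65 (SE 0.53, adjusted p = 0.440). On the log2 scale both had the order of arrays seen for miR-467a. The miR-297c difference was 0.76 (SE 0.60).

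Some other names of the cluster had smaller steps between replicates, or steps in the other direction. miR-466f-3p gave 157.1 and 214.6 units in siLin28a cells and 158.1 and 194.0 in siGFP cells, a log2 difference of -0.13 (SE 0.18, adjusted p = 0.653). miR-466f-3p was dimmer in replicate 1 in both groups, with log2 steps of -0.33 in siLin28a and -0.29 in siGFP cells. The steps of miR-466g were -0.35 and -0.36. miR-466c-5p gave 202.8 and 179.0 units in siLin28a cells and 138.3 and 142.2 in siGFP cells, a difference of 0.24 (SE 0.15, adjusted p = 0.363). miR-669c gave 165.3 and 161.0 units in siLin28a cells and 123.0 and 118.6 in siGFP cells, a difference of 0.22 (SE 0.12, adjusted p = 0.322). The names with and without the step seen for miR-467 lay among each other in the cluster, with miR-669b and miR-466f-3p less than 1 kb apart.

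Outside the 4 families, no miRNA had the miR-467 pattern as closely as the members had it among themselves. Likeness was the root mean square distance between the log2 values of a miRNA, centred over the 4 arrays, and the mean centred values of the 5 names, which were 0.97 and -0.16 in siLin28a cells and 0.09 and -0.90 in siGFP cells. The members themselves lay between 0.038 and 0.174 from that mean, which they define. Of 183 candidates well above background on all arrays, with a median distance of 0.722, 0 lay within 0.174. The nearest were miR-205 at 0.409, miR-141 at 0.431, miR-200c at 0.436, miR-324-5p at 0.451 and miR-142-3p at 0.475. miR-205, miR-141 and miR-200c are miRNAs of epithelial cells, and miR-142-3p marks blood cells. miR-205 gave 238.5 and 189.6 units in siLin28a cells and 156.9 and 130.4 in siGFP cells, a log2 difference of 0.36 (SE 0.22, adjusted p = 0.351). miR-142-3p gave 116.2 and 63.2 units in siLin28a cells and 94.0 and 64.9 in siGFP cells, a log2 difference of -0.09 (SE 0.44, adjusted p = 0.909). Like the miR-467 names it was brighter in replicate 1 of each group, but its difference between groups lay near 0. The other detected blood marker, miR-150, was dimmer in replicate 1 of each group, with 24.6 and 37.1 units in siLin28a cells and 19.7 and 28.1 in siGFP cells. The likeness rests on 4 arrays and is a description.

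Some marker lists also differed by replicate number. The summed signal of the 5 primed pluripotent names was higher in replicate 1 in both groups, as given above, and only miR-367 among them was detected, on 1 array (siLin28a, replicate 1). The summed fibroblast or feeder signal, given above, and the summed blood signal (138.7 and 99.7 in siLin28a cells, 111.8 and 91.8 in siGFP cells, 2 of 3 names detected) were higher in replicate 1 as well. Most of the fibroblast or feeder sum was miR-21, with 354.7 and 304 units in siLin28a and 320.9 and 249.8 in siGFP cells. In that list miR-31 was dimmer in replicate 1, with 24.9 and 30.8 in siLin28a and 29.2 and 34.9 in siGFP cells. So was miR-214 in both groups, and miR-143 in siLin28a cells only. The summed neural signal was lower there, with 149.8 and 218.5 units in siLin28a cells and 140.7 and 167.7 in siGFP cells (1 of 2 names detected). No embryonic stem cell name was higher in replicate 1 in both groups. miR-295 gave 18520 and 18310 units in siLin28a cells and 16590 and 16630 in siGFP cells. Of these names miR-291a-5p, miR-292-3p, miR-292-5p and miR-293 were dimmer in replicate 1 in both groups. miR-293 gave 7689 and 8006 units in siLin28a cells and 6552 and 6658 in siGFP cells. The part of the cells behind these markers in the miR-467 values was not tested.

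**Figure D5:**
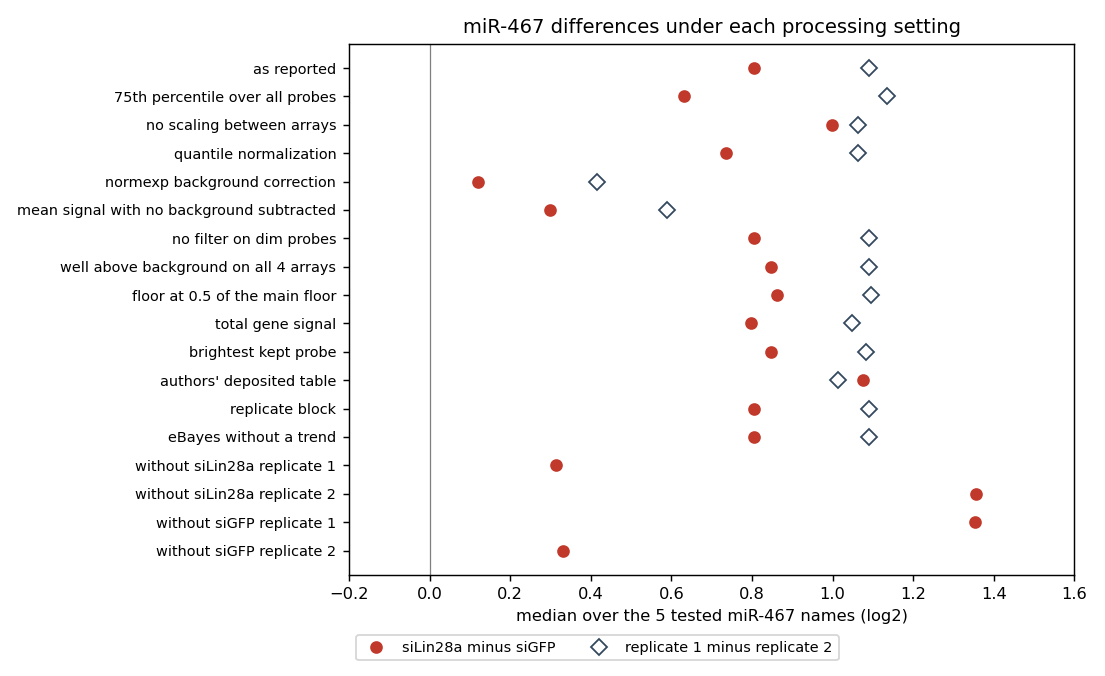
Median over the 5 tested miR-467 names of the log2 difference siLin28a minus siGFP (red circles) and of replicate 1 minus replicate 2 averaged over both groups (open diamonds), as reported and under each other processing (rows). The group difference was 0.80 as reported and stayed above 0 in all rows, between 0.12 with normexp background correction and 1.36 without the siLin28a array of replicate 2; the replicate step is not defined where an array is left out.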

How the data were processed

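The miRNA arrays of 4 samples, 2 siLin28a and 2 siGFP, were grouped by sample title. Intensity, linear and per spot, is the unit of the deposited scanner files. Those files came from Agilent Feature Extraction 9.5.1.1 on array design 019119, per the file headers, or per the submitters' processing notes from version 9.5.3.1. Per the file headers the processed intensity has a background surface subtracted, and probe coordinates are of build mm9. The authors' deposited table lists the total gene signal to 1 decimal, unscaled, within 1% of the scanner files for 100% of signals above 10.

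Each array had 11540 spots that were not controls. Outlier spots (3.21% to 4.32%) were left out, none was saturated (0), and between 31.9% and 38.4% of spots were well above background. Processed intensity from the deposited files was averaged per probe, divided by the array's 75th percentile over 425 probes (248 and 264.9 in siLin28a, 225.8 and 219.7 in siGFP), floored at 0.0948 and taken to log2. On the siLin28a array of replicate 2 that percentile fell on a miR-467b probe. A probe counted as well above background with at least 50% of its spots so flagged; 477 probes of 231 miRNAs were kept, 1 of them viral. The test was limma 3.58.1 under R 4.3.3 (trended eBayes, two-sided, 2 residual and 1.64 prior degrees of freedom), after the procedure was tested on simulated data. The number of arrays limits the precision. The members, lists, tests and alternatives were chosen with earlier results of these data known. All miR-467 names are accounted for, with the 5 miRNAs of most similar profile outside the cluster and the 2 names with the highest mean level of each other family in the cluster. None of the mature miR-467 sequences was matched in the RefSeq table used (0 matches), so none is printed. Promoter windows are from RefSeq, GRCm38.p6.

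Alternatives to scaling, background, filter, floor, summary, value table, replicate block, variance model and each array left out were run.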

Additional observations from a re-analysis of the deposited data

How the results depend on the processing

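The median difference of the 5 miR-467 names was above 0 in all 17 alternatives (0.12 to 1.36; 0.31 to 1.36 with 1 array left out), and the arm balance of miR-467a kept its direction without being called (0.01 to 0.22, adjusted p 0.448 to 0.949; 0.01 to 0.22 with 1 array left out). miR-467e reversed to -0.0295 without siLin28a replicate 1. The count of miRNAs called higher, 2 as reported, was 0 with the percentile over all probes, 0 with the mean signal with no background subtracted, 0 with probes well above background on all 4 arrays, 5 with normexp, 8 with the total gene signal, 10 with the floor at 0.5 of its value, 27 in the authors' deposited table and 40 with no filter, and 0 to 10 with 1 array left out. The count called lower, 0 as reported, was 2 with normexp, 12 with no filter and 0 to 1 with 1 array left out. Of the miR-467 names, 1 was called higher with normexp (miR-467b, 0.51) and 5 with no filter (0.92, 0.80, 0.86, 0.80 and 0.66 for miR-467a, miR-467a*, miR-467b, miR-467c and miR-467e), and 0 in each fit with 1 array left out, where a lone sample is assumed to vary like the other group, so that the missing call says little. The median step of replicate 1 over replicate 2, 1.09 as reported, was 0.42 with normexp and 0.59 with the mean signal. Normexp moved the median signal by -15.3 and -11 units on the siLin28a arrays (replicates 1 and 2) and by -13.5 and 47.5 on the siGFP arrays. A probe of the undetected miR-467d went from 77.4 to 126 units on the siGFP array of replicate 2. On the siGFP array of replicate 1 that probe went from 73.5 to 59.8, so normexp did not treat the arrays alike. The causes were not tested. The median of all miRNAs shifted by -0.16 with the percentile over all probes, by 0.19 with no scaling, by -0.19 with normexp and by 0.25 in the authors' deposited table.

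With replicate number as a block (replicate block), the differences were the same, 2 miRNAs were called higher and 0 of 5 miR-467 names were called. In that limma fit 5 of 5 had an unadjusted p under 0.05, beside 49 higher and 31 lower of the 231. Without the block it was 0 of 5, beside 31 higher and 26 lower. With the block the SEs were 0.094 to 0.150. The limma adjusted p was 0.0555 for miR-467a, miR-467a*, miR-467b and miR-467e and 0.0624 for miR-467c. Samples of the same number deviated together from their group means (r = 0.706 over 231 miRNAs, 0.377 over the 214 outside the 4 families), but the labels tie no number to a shared culture or day, and 2 pairs do not settle a pairing. A slide block was not run, since all 4 arrays lay on 1 slide and in 1 scan. Signals near the floor limit what can be said of miR-467b*, miR-467d and miR-467e*.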
